A study of Mus musculus with 16 samples.

Results

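GABA-A receptors are the chloride channels through which GABA, the main inhibitory transmitter of the brain, acts within milliseconds. The 7 subunit genes described here are the alpha subunits Gabra2, Gabra3, Gabra4 and Gabra5, the beta subunits Gabrb1 and Gabrb2, and the delta subunit Gabrd. They were found in the table of raw counts by gene symbol, 7 of 54532 table entries, and all 7 were among the 17736 genes that passed a filter on low counts. Each receptor is a ring of subunits. The alpha subunit largely sets where a receptor sits and how it responds to benzodiazepines, the beta subunit carries part of the GABA binding site, and delta marks receptors outside synapses that give a lasting, tonic current, often together with alpha 4 in the forebrain. Receptors with alpha 5 are best known from the hippocampus, where they also contribute to tonic inhibition.

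RNA of female mice of 9 months was sequenced in 16 libraries, 4 for each of 4 genotypes. Mice with Ch25h (Ch25h+/+) and mice without it (Ch25h-/-) were each studied without tau (Tau-) and with it (Tau+). Ch25h encodes cholesterol 25-hydroxylase, an enzyme of immune cells that makes an oxysterol, and -/- stands for its loss in both alleles. The labels name neither the tau transgene nor its promoter, nor a mouse strain, and do not say whether each library came from its own mouse, so p-values measure the spread between these libraries. The sample labels call the tissue frontal cortex, whereas the series' own design text calls it hippocampus. Summed markers of excitatory cortical neurons were at 4367 to 5891 CPM (counts scaled to the size of the library) and 7 hippocampal markers together at 34.7 to 78.5 CPM, with Iyd at or under 3 counts in some libraries.

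Depth was 15530352 to 25602500 counts per library. Ch25h had 0 counts in each Ch25h-/- library, which allows up to 3 counts, against 5 to 30 counts in the Ch25h+/+ libraries. Prnp, the gene whose promoter drives a widely used tau transgene, was at 1414 to 1935 CPM in the Tau+ libraries and 708 to 839 CPM in the Tau- libraries. The ribosomal RNA transcript CT010467.1 was above 1000 CPM in 7 of the 8 Ch25h-/- libraries and in no Ch25h+/+ library. These 7 are called rRNA-rich below. The remaining Ch25h-/- library, Ch25h-/- Tau+ replicate 1, was at 153 CPM, within the 111 to 475 CPM of the Ch25h+/+ libraries. In bulk tissue, fewer cells of a type and less RNA per cell cannot be told apart.

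All 7 genes are annotated as protein coding (GENCODE M21, build GRCm38). Gabra2, Gabra4 and Gabrb1 share a stretch of chromosome 5. Gabra2 lies at chr5:70957597-71095849 and Gabra4 at chr5:71569749-71658308, both on the minus strand, with 473.9 kb between them. Gabrb1 lies at chr5:71658113-72149037 on the plus strand, head to head with Gabra4, and the 2 gene spans overlap by 196 bp, 46 bp of them exonic in both. Gabra3 is at chrX:72432681-72656848, Gabra5 at chr7:57407672-57510059 and Gabrd at chr4:155384980-155398112, all on the minus strand, and Gabrb2 is at chr11:42419757-42629028 on the plus strand. The use of strand in counting is not given in the sources used here. The exonic overlap was 0.76% of the exonic length of Gabra4 and 0.33% of that of Gabrb1, and Gabra5 shared 148 bp, 4.98% of its exonic length, with Gm9962, which had at most 56 counts in a library.

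RefSeq (GRCm38.p6) gave a promoter for 6 of the 7 members. The 250 bases before an annotated start are shown for Gabra3 and Gabrb1, which were higher without Ch25h in the results below. They are also shown for Gabra2 and Gabrb2, the members that varied most between libraries of a group. The place of Gabrb2 rests on Ch25h+/+ Tau+ replicate 1, without which Gabra5 varied more (SD of 0.33 against 0.21 in log2). None of these windows holds annotated UTR, whereas that of Gabra4 does and is not shown. Each is written 5′ to 3′ on the gene's strand. Capitals mark the motifs TATAAA (the TATA box) and GGGCGG (the GC box), searched on both strands, so that TTTATA and CCGCCC are these motifs on the other strand. No match overlapped another.
Gabra2, chr5:71095850-71096099, minus strand: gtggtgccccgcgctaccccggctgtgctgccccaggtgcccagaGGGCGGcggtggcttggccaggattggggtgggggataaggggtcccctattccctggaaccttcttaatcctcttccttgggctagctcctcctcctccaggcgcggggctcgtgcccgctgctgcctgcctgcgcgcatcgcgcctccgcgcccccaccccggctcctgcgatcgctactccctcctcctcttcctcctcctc
Gabra3, chrX:72656920-72657169, minus strand: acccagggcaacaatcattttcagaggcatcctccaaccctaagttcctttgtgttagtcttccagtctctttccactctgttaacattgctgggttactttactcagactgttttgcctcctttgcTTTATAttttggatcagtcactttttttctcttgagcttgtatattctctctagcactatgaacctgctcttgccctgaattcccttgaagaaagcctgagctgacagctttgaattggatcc
Gabrb1, its second annotated start, chr5:71699682-71699931, plus strand: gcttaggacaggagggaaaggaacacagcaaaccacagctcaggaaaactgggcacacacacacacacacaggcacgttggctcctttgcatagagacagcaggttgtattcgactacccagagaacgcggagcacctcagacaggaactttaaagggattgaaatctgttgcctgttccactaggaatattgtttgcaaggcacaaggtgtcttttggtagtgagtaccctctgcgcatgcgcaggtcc
Gabrb2, chr11:42420190-42420439, plus strand: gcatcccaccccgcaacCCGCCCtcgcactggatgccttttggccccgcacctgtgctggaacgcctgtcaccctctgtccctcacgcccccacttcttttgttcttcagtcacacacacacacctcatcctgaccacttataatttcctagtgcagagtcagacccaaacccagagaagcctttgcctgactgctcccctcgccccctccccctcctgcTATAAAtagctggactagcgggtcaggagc
The window of Gabra2 was 70.0% GC with 18 CpG, and that of Gabra3 was 42.4% GC with 0 CpG. Gabrb2 had TATAAA on its own strand 30 bases before its first annotated start, the one shown. The windows of its annotated starts 2 and 3 held neither motif. The match in Gabra3 was on the opposite strand, 123 bases before its first annotated start. The GC box of Gabra2 began 205 bases before the start, and that of Gabrb2, on the opposite strand, 233 bases before it. The Gabrb1 window held neither motif. Of 32851 mouse promoter windows of the same length, 12.4% held TATAAA and 32.7% held GGGCGG. A match is a description of the letters in the window.

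Per kilobase of exon, Gabra3 had the highest mean level, at 34.3 ± 4.04 CPM per kb (SD, n = 16), followed by Gabrd at 29.4 ± 3.55. Gabrb2 was at 20.1 ± 5.48 CPM per kb, Gabra4 at 16.5 ± 1.92 and Gabra5 at 16.02 ± 3.31. Gabra2, at 10.3 ± 3.43 CPM per kb, and Gabrb1, at 8.05 ± 1.69, were lowest. Gabra3 lay above Gabrd in 12 of 16 libraries, Gabrd above Gabrb2 in 15, Gabrb2 above Gabra4 in 15, Gabra5 above Gabra2 in 14 and Gabra2 above Gabrb1 in 12. Gabra4 and Gabra5 were not separated, with Gabra4 the higher in 8 libraries. With the longest transcript as the length, Gabrb2 (32.1 CPM per kb) passed Gabrd (31.3 CPM per kb), so the order of these 2 rests on the length used.

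**Figure D1:**
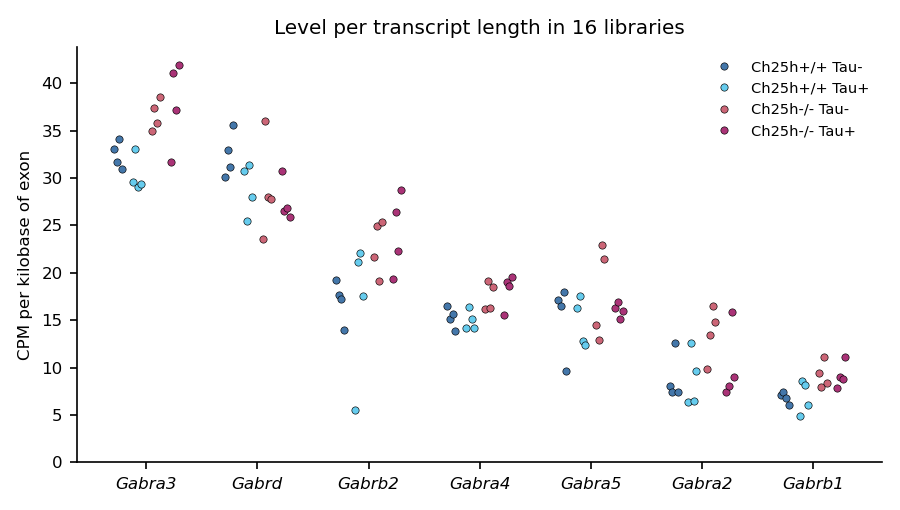
Level of each subunit gene in CPM per kilobase of exon (vertical axis), with 1 point per library coloured by genotype and genes ordered by their mean. Gabra3 and Gabrd are the 2 highest by mean, Gabra4 and Gabra5 lie at the same height, and 1 Ch25h+/+ Tau+ library has Gabrb2 far below the other 15.

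None of the 7 subunits passed the test for tau status. Few genes did in all, so the lack of calls is not particular to them. With Ch25h present, 0 of 7 were past the threshold (adjusted p under 0.05 over all genes, by the quasi-likelihood test of edgeR with Benjamini-Hochberg adjustment), where 1.56% of all genes were. Their log2 fold changes ran from -0.17 to 0.02 with a median of -0.04, against a median of -0.01 over all genes, and 0 of 7 had an unadjusted p under 0.05. Gabrd had the lowest value, -0.17 ± 0.11 (SE), with 93.3 ± 6.83 CPM (SD, n = 4) in Ch25h+/+ Tau- and 83.0 ± 7.81 CPM in Ch25h+/+ Tau+ (edgeR adjusted p = 0.726). The 95% intervals limit a tau effect on Gabra3 to between 0.83-fold and 1.05-fold and one on Gabra4 to between 0.86-fold and 1.11-fold. For Gabrb2 the interval was wide, from 0.66-fold to 1.43-fold, and it rests on 1 library. Without Ch25h+/+ Tau+ replicate 1 the Gabrb2 estimate turned from -0.04 ± 0.26 to 0.26 ± 0.13 in log2 (edgeR adjusted p = 0.475).

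Without Ch25h, 0 of 7 were past the threshold for tau either, where 0.0395% of all genes were, and 0 of 7 had an unadjusted p under 0.05. The lowest value belonged to Gabra2, at -0.44 ± 0.25 (SE), with overlapping groups at 104.2 ± 21.5 CPM in Ch25h-/- Tau- and 77.1 ± 29.6 CPM in Ch25h-/- Tau+ (edgeR adjusted p = 1). Without Ch25h-/- Tau+ replicate 3 the Gabra2 value was -0.75 ± 0.24 (edgeR adjusted p = 0.9998). The other 6 lay between -0.16 and 0.09. Over both genotypes together, 0 of 7 passed for tau (0.857% of all genes), and for the interaction of Ch25h loss with tau 0 of 7 passed (0.0338% of all genes). DESeq2 and limma-voom also called 0 members in each of these 4 comparisons.

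**Figure D2:**
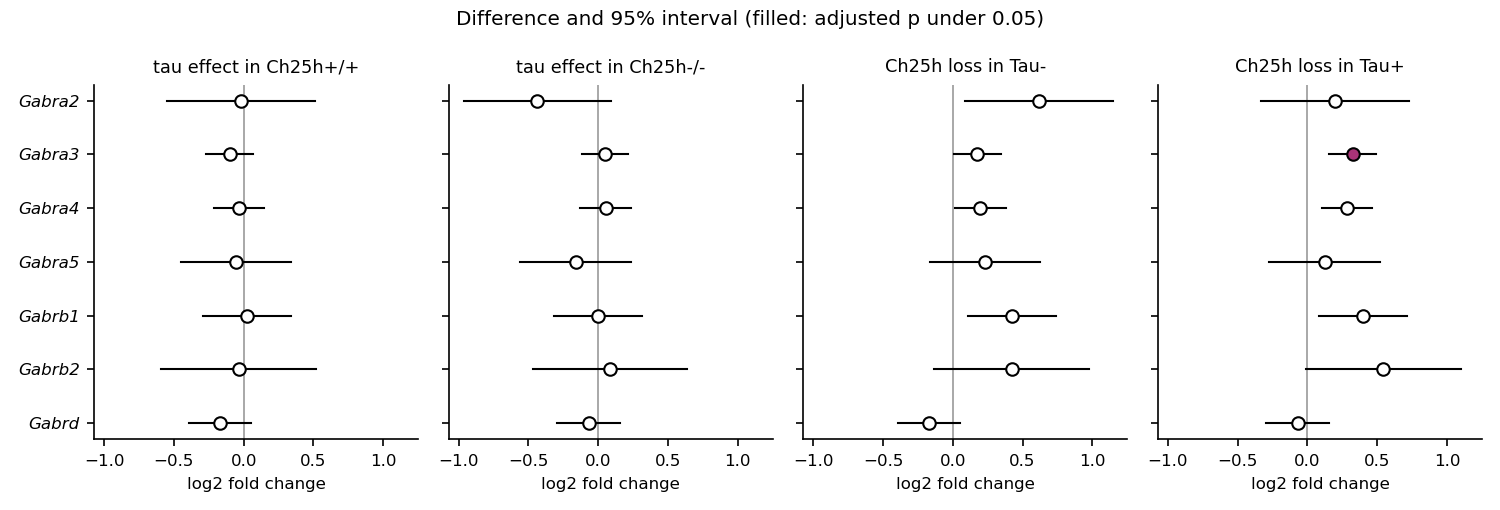
Log2 fold change (horizontal axis) with its 95% interval for each subunit gene in the tau and Ch25h comparisons, filled where the adjusted p was under 0.05. Tau intervals include 0 for all 7 genes, and Gabra3 in the Ch25h comparison among Tau+ libraries is the only filled point.

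Subunit transcripts were higher without Ch25h for 3 of the 7 members when both tau states were averaged. Gabra3, Gabra4 and Gabrb1 rose and 0 fell, where 20.3% of all genes passed the test and 9.55% of all genes passed it upward. All 3 lie among the genes under 45% GC, of which 25.4% were called higher. Gabra3 rose 1.19-fold (log2 0.25 ± 0.06 SE, edgeR adjusted p = 0.00727), Gabra4 1.18-fold (0.24 ± 0.06, adjusted p = 0.0124) and Gabrb1 1.33-fold (0.41 ± 0.11, adjusted p = 0.0137). The estimates for Gabrb2 (0.48 ± 0.19, edgeR adjusted p = 0.0750) and Gabra2 (0.41 ± 0.18, adjusted p = 0.110) were as large or larger but did not pass. Gabra5 (0.18 ± 0.13) and Gabrd (-0.12 ± 0.08) did not pass, and Gabrd alone had an estimate below 0. The median over the 7 was 0.25, against 0.00 over all genes. All 3 calls were lost with a covariate for the library class and with GC-corrected offsets, as given below.

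Gabra3, an alpha subunit found in many cortical and brainstem receptors, had the smallest adjusted p of the 7 for the mean Ch25h effect. Its level in Ch25h+/+ Tau- replicates 1 to 4 was 129.7, 124, 134 and 121 CPM, and in Ch25h-/- Tau- 137, 147, 141 and 151 CPM. All 4 Ch25h-/- Tau- libraries lay above all 4 Ch25h+/+ Tau- libraries, as was true of 7.64% of all genes, but the difference did not pass the test (log2 0.18 ± 0.08 SE, edgeR adjusted p = 0.218). In Ch25h+/+ Tau+ it was 116, 129.7, 114 and 115 CPM, and in Ch25h-/- Tau+ 124, 161, 146 and 165 CPM. There, replicate 1 of Ch25h-/- Tau+ fell within the Ch25h+/+ range and the other 3 above it. In the same Tau+ libraries, 5 astrocyte markers summed to 1170 to 2282 CPM with Ch25h and 931 to 1127 CPM without it. The sums of 5 microglial markers were 356 to 431 and 225 to 267 CPM. Pan-neuronal sums overlapped, at 5489 to 6019 and 5669 to 6471 CPM. The part of cell composition in the Gabra3 values was not tested. Gabra3 rose by 0.33 ± 0.08 in log2 (1.25-fold, edgeR adjusted p = 0.0352), the only member of the 7 past the threshold for Ch25h loss among Tau+ libraries, where 3.55% of all genes passed and 1.14% passed upward. This call held in 8 of 16 fits with 1 library left out. It was lost without Ch25h+/+ Tau- replicate 1 or 2, Ch25h+/+ Tau+ replicate 1, 3 or 4, or Ch25h-/- Tau+ replicate 2, 3 or 4 (edgeR adjusted p up to 0.128), and when only the 8 Tau+ libraries were fitted (adjusted p = 0.133). It was also lost with the library class described below as a covariate (log2 0.07, adjusted p = 0.978) and with GC-corrected offsets (log2 0.19, adjusted p = 0.194).

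Gabra4, the usual partner of delta in forebrain receptors outside synapses, was at 100.2, 92.1, 95.4 and 84.1 CPM in Ch25h+/+ Tau- and at 98.2, 116, 99.1 and 113 CPM in Ch25h-/- Tau-. Among Tau+ libraries it was at 86.2, 99.5, 92.0 and 86.0 CPM with Ch25h and at 94.3, 116, 113 and 119 CPM without it. The groups overlapped in both tau states, and neither difference passed the test by itself (edgeR adjusted p = 0.197 and 0.0700). Gabra4 was called among Tau+ libraries by DESeq2 (adjusted p = 0.0332) and limma-voom (adjusted p = 0.0192), and by edgeR without Ch25h+/+ Tau+ replicate 2 (adjusted p = 0.0471) or Ch25h-/- Tau+ replicate 1 (adjusted p = 0.0188). These fits called more genes in all than the 3.55% above, namely 8.42% with DESeq2, 10.6% with limma-voom, and 7.01% and 9.42% with the respective library left out.

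Gabrb1, a beta subunit, was at 98.4, 102, 94.7 and 84.0 CPM in Ch25h+/+ Tau- and at 129.9, 111, 154 and 116 CPM in Ch25h-/- Tau-. Again there was no overlap, as was true of 7.64% of all genes in this direction. In Ch25h+/+ Tau+ it was at 67.9, 119, 113 and 84.0 CPM, and in Ch25h-/- Tau+ at 108, 124, 122 and 154 CPM, which overlap. Gabrb1 did not pass in either tau state (log2 0.43 ± 0.15, edgeR adjusted p = 0.125, and 0.40 ± 0.15, adjusted p = 0.123). Among Tau- libraries 0 of 7 members passed, where 1.03% of all genes did, and 4 of 7 had an unadjusted p under 0.05, as did 3700 of the 17736 genes tested. With Ch25h+/+ Tau+ replicate 1 left out, Gabrb1 (edgeR adjusted p = 0.0420) and Gabrb2 (adjusted p = 0.0449) passed there, and so did 7.25% of all genes in that fit.

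Gabrb2, the beta subunit of the most common synaptic receptors, was at 122, 112, 109.5 and 88.8 CPM in Ch25h+/+ Tau- and at 138, 159, 122 and 161 CPM in Ch25h-/- Tau-. In Ch25h+/+ Tau+ it was at 35.2, 134, 140.2 and 112 CPM, and in Ch25h-/- Tau+ at 123, 168, 142 and 183 CPM. Replicate 1 of Ch25h+/+ Tau+ was the lowest of all 16 libraries, with 572 counts. Without that library the mean Ch25h difference was 0.34 ± 0.09 in place of 0.48 ± 0.19, and it passed the test (edgeR adjusted p = 0.0174), as it did without replicate 3 of the same group (0.57, adjusted p = 0.0420). It also passed with limma-voom (0.42, adjusted p = 0.0245) and without the filter on low counts (0.47, edgeR adjusted p = 0.0117). With replicate 1 of Ch25h+/+ Tau+ and of Ch25h-/- Tau+ both left aside it passed too (0.38, edgeR adjusted p = 0.00494), an alternative chosen after seeing the data. Of all genes, 18.2% and 21.4% passed without replicate 1 and replicate 3 of Ch25h+/+ Tau+. The share was 25.7% with limma-voom, 9.42% without the filter and 23.3% with both libraries left aside. Gabrb2 thus passed in 3 of 8 alternative settings and in 2 of 16 fits with 1 library left out. Its lowest estimate in those settings was 0.11.

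**Figure D3:**
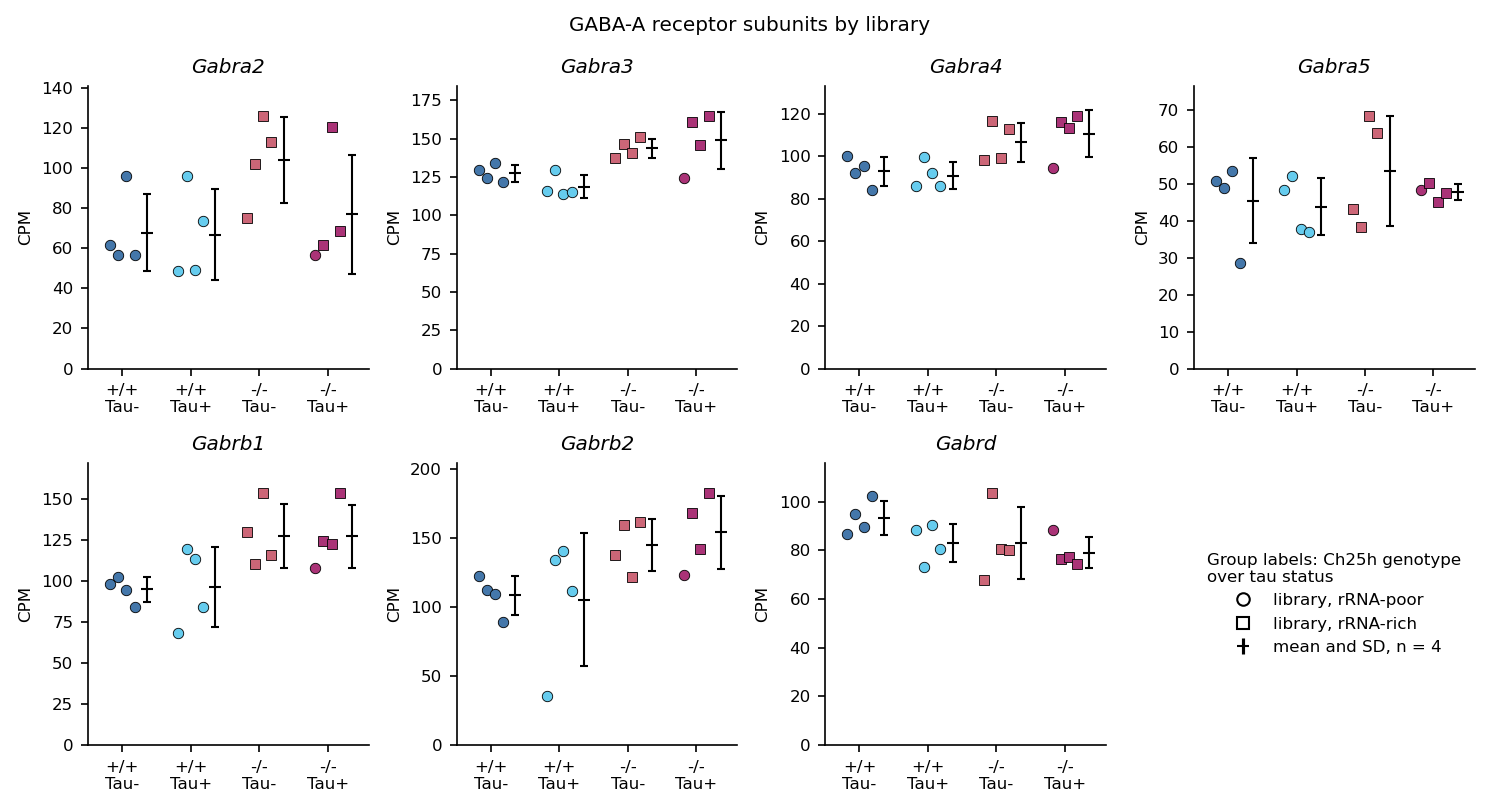
CPM of each subunit gene in all 16 libraries by genotype, with squares for rRNA-rich libraries, circles for the others and bars for the mean and SD of 4 libraries. In Gabra3 the squares lie above all circles, and the single circle among the Ch25h-/- groups lies at 124 CPM, inside the Ch25h+/+ range.

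The low Gabrb2 value was in a library that was low in long transcripts as a whole. In Ch25h+/+ Tau+ replicate 1, 2130 genes with a longest transcript over 6000 bp lay 0.705 log2 units below 2765 genes with one under 2000 bp. These are medians, each gene taken relative to its median over the libraries. The next lowest library stood at -0.213. Of the members only Gabrb1, with a longest transcript of 13737 bp, is in the long set. Gabrb2, with one of 3989 bp, is in neither set. Gabrb2 ranked 6 from the lowest of 6389 genes there, Gabrb1, with the longest exons of the members (13838 bp), ranked 191, and Gabra3, Gabra4, Gabra5 and Gabrd ranked 2070 or higher. Gabra2 ranked 398. The same library had the lowest sum of 7 excitatory cortical neuron markers of all 16 (4367 CPM, the next lowest 5046 CPM) and the highest sum of 9 inhibitory interneuron markers (1738 CPM, the others 1266 to 1644 CPM). The part of the length trend and of these markers in the Gabrb2 and Gabrb1 values was not tested.

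**Figure D4:**
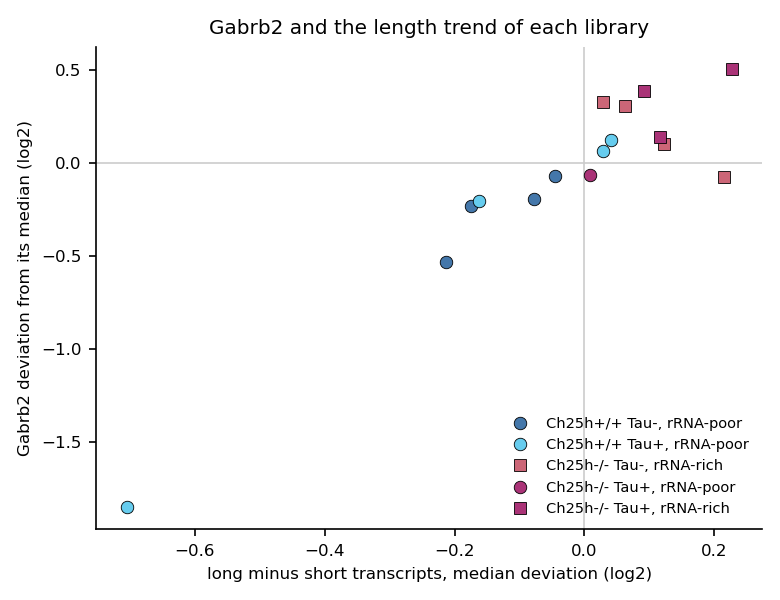
Deviation of Gabrb2 from its median (vertical axis, log2) against the median deviation of long minus short transcripts (horizontal axis, log2) in each of 16 libraries. The Ch25h+/+ Tau+ library at -0.705 and -1.85 stands apart from the other 15.

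The rRNA-rich class followed the Ch25h genotype in all but 1 library. Malat1, a nuclear long noncoding RNA, moved with the class, at 392 to 1041 CPM in the 7 rRNA-rich libraries and 167 to 290 CPM in the other 9, and its part in the Ch25h differences was not tested. Gabra3 was at 137 to 165 CPM in the 7 rRNA-rich libraries and at 114 to 134 CPM in the other 9, without overlap, as were 2.13% of all genes in this direction. The other 6 members overlapped between the classes. Gabra5 had nearly the same median in both (47.5 CPM in the rRNA-rich and 48.5 CPM in the other libraries), and the Gabrd median was lower in the rRNA-rich libraries (77.2 against 88.5 CPM). The single rRNA-poor Ch25h-/- library lay within the Ch25h+/+ range for all 7 members. It was, for example, at 94.3 CPM for Gabra4 (84.1 to 100.2 CPM) and 108 CPM for Gabrb1 (67.9 to 119 CPM). The share of all genes of which this was true was not counted, so it is not a trait of the members. With the class as a covariate, 0 of 7 members and 0 genes in all passed for the mean Ch25h effect, and the estimates were -0.05 ± 0.10 for Gabra3, -0.02 ± 0.12 for Gabra4 and 0.14 ± 0.23 for Gabrb1. In that fit the Ch25h effect rests on 1 Ch25h-/- library, so genotype and class can hardly be told apart.

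Ch25h differences also followed the GC content of the transcripts. Genes under 45% GC, which include Gabra2, Gabra3, Gabra4, Gabrb1 and Gabrb2, had a median log2 difference of 0.17, and 25.4% of them were called higher. The median was 0.06 at 45 to 50% GC, where Gabra5 lies (47.1%), and -0.06 at 50 to 55% GC, where Gabrd lies (54.7%). Genes above 55% GC had a median of -0.18. With offsets that take out the GC trend within each library, 0 of 7 members passed for the mean effect, where 3.91% of all genes did, and the estimates were 0.11 ± 0.05 for Gabra3, 0.08 ± 0.05 for Gabra4, 0.23 ± 0.09 for Gabrb1, 0.37 ± 0.18 for Gabrb2 and -0.01 ± 0.07 for Gabrd.

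**Figure D5:**
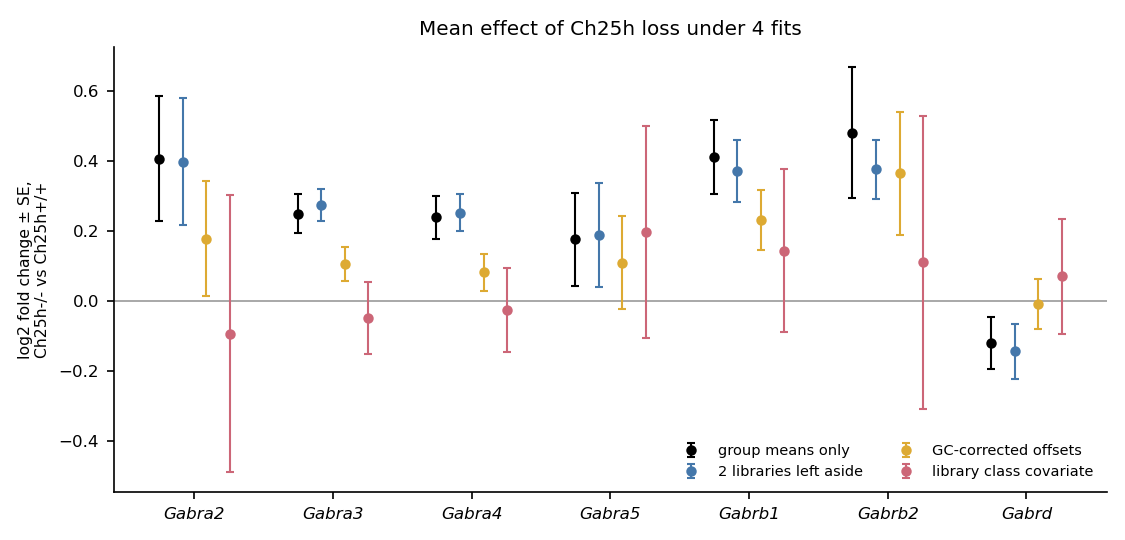
Mean log2 fold change of Ch25h-/- against Ch25h+/+ (vertical axis, with SE) for each subunit gene under 4 fits, where the 2 libraries left aside are replicate 1 of Ch25h+/+ Tau+ and of Ch25h-/- Tau+. With GC-corrected offsets the 5 GC-poor genes lie nearer to 0, and with the library class as a covariate Gabra2, Gabra3 and Gabra4 lie below 0 with wider errors.

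Gabra2, an alpha subunit at synapses of the forebrain, varied between libraries of the same genotype more than most genes. It was at 61.8, 56.8, 96.4 and 56.6 CPM in Ch25h+/+ Tau- and at 48.5, 96.3, 49.3 and 73.7 CPM in Ch25h+/+ Tau+. Without Ch25h it was at 75.4, 102, 126 and 113 CPM in Tau- and at 56.8, 61.9, 121 and 68.8 CPM in Tau+. A single library stood well above the other 3 in Ch25h+/+ Tau- and in Ch25h-/- Tau+. The within-group SD of 0.42 in log2 was above that of 99.2% of 4497 genes with a mean of 40 to 200 CPM, whose median SD was 0.13. The mean Ch25h difference of Gabra2 passed the test without Ch25h+/+ Tau+ replicate 2 (log2 0.51, edgeR adjusted p = 0.0418), and without Ch25h-/- Tau+ replicate 3 it was 0.25 (adjusted p = 0.289) in place of 0.41. With Ch25h+/+ Tau+ replicate 1 left aside the Gabra2 SD was 0.41, while that of Gabrb2 went from 0.50 to 0.21.

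Gabra5 was at 50.9, 49.0, 53.6 and 28.6 CPM in Ch25h+/+ Tau- and at 48.5, 52.2, 37.9 and 36.9 CPM in Ch25h+/+ Tau+. It was at 43.2, 38.3, 68.3 and 63.9 CPM in Ch25h-/- Tau- and at 48.4, 50.2, 45.1 and 47.5 CPM in Ch25h-/- Tau+. Its SD (0.32 in log2) was above that of 98.2% of the same genes. The 2 highest libraries, Ch25h-/- Tau- replicates 3 and 4, also had the highest sums of the 7 hippocampal markers (78.5 and 73.5 CPM), and the lowest, Ch25h+/+ Tau- replicate 4, had the lowest sum (34.7 CPM). Ch25h+/+ Tau- replicate 3, at 62.8 CPM of these markers, had the third highest Gabra5 value. The match did not hold throughout, since Ch25h+/+ Tau+ replicate 3 had a marker sum of 50.3 CPM with Gabra5 at 37.9 CPM, and Ch25h+/+ Tau- replicate 1 a sum of 37.0 CPM with Gabra5 at 50.9 CPM. Their part in the Gabra5 values was not tested.

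Gabrd was at 86.6, 94.7, 89.7 and 102 CPM in Ch25h+/+ Tau-, at 88.3, 73.2, 90.3 and 80.3 CPM in Ch25h+/+ Tau+, at 67.8, 104, 80.5 and 80.0 CPM in Ch25h-/- Tau- and at 88.5, 76.3, 77.2 and 74.3 CPM in Ch25h-/- Tau+. The 4 groups overlapped.

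Across the 16 libraries Gabra3 and Gabra4 were the most alike pair of members (Pearson r = 0.927 of log2 CPM), and Gabrb1 and Gabrb2 followed (r = 0.786). Gabra4 and its neighbour Gabrb1 had r = 0.691. Gabrd ran against the other 6, with r from -0.539 to -0.288. These values share the library class and the length trend given above, so they describe these libraries. Of 13959 genes ranked, the 2 most like Gabra3 were Ipo7 (0.944) and Tcea1 (0.942), and those most like Gabra4 were Atf2 (0.961) and Miga1 (0.961). Akap11 (0.977) and Dmxl2 (0.976) were most like Gabrb1, Slc9a7 (0.981) and Faxc (0.980) most like Gabrb2, and Rspo1 (0.926) and Vamp1 (0.899) most like Gabrd. Gabra5 was most like Galnt17 (0.894) and Neurod6 (0.852), and Gabra2 was least closely matched, by Nipa2 (0.808) and BC024063 (0.803).

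Of 51 other genes of GABA signalling, 46 were tested. None passed for tau in either genotype, for Ch25h loss in either tau state or for the interaction. For the mean effect of Ch25h loss, 6 rose and 4 fell, where 9.55% of all genes passed upward and 10.8% downward. Among the other GABA-A subunits 3 of 7 tested rose and 0 fell, and Gabrg3, a gamma subunit, rose by 0.35 ± 0.10 in log2 (edgeR adjusted p = 0.0222). Of 8 genes for GABA synthesis, loading, uptake and breakdown, Slc32a1, the vesicular GABA transporter, fell by 0.28 (SE 0.07, edgeR adjusted p = 0.0106).

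Of 19 genes for receptor clustering, assembly and trafficking, 2 rose and 2 fell. Mkln1 rose by 0.36 ± 0.08 (edgeR adjusted p = 0.00606), and Lhfpl4, which holds GABA-A receptors at synapses, fell by 0.18 (SE 0.04, edgeR adjusted p = 0.00940). Clptm1, which limits receptor export, fell by 0.13 (SE 0.04, edgeR adjusted p = 0.0383). Clptm1 is outside the rule for naming and was added after its value was seen. Of 6 genes of the GABA-B receptor, Gabbr1, a receptor subunit, fell by 0.16 (SE 0.05, edgeR adjusted p = 0.0204) and Kctd16, an auxiliary subunit, rose by 0.55 ± 0.18 (adjusted p = 0.0406). None of the 6 chloride transport genes passed. With the library class as a covariate 0 of the 46 passed, and with GC-corrected offsets 1 did.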

How the data were processed

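Bulk RNA of 16 libraries was compared in 4 groups of 4. The authors deposited 1 table of raw counts per gene and library, with no normalization, per the file headers. STAR 2.7 and the builds GRCm38 and mm10 are listed, with no role, per the submitters' processing notes. The annotation, the counting program and the use of strand are not given in the sources used here. Per the labels' protocols, libraries were made from total RNA with a SMARTer mRNA kit. All values were whole numbers, with totals that differ between libraries. Replicates are numbered in record order, which pairs nothing.

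filterByExpr over the 4 groups left 17736 genes. With TMM scaling, edgeR 4.0.16 under R 4.3.3 fitted 1 mean for each group to the 16 libraries together, and 7 comparisons were tested by its two-sided quasi-likelihood F test. The Benjamini-Hochberg adjustment covered every gene tested, at a threshold of 0.05. Fits were tested on simulated data. CPM values use TMM-scaled library sizes. Correlations use log2(CPM + 0.5) of genes with a mean of at least 1. Alternatives used DESeq2 1.42.0, limma 3.58.1 (voom with quality weights), other scalings and filters, the library class, GC offsets (loess, span 0.5) and each library left out. The annotation gave a GC content for 99.2% of tested genes.

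The members and lists were chosen with earlier results of these data known. All members are named in each comparison, with at most 3 called genes of each pathway list by smallest p, and the 2 genes most like each member. Some genes that this rule names are not reported here. The floor of 3 counts covers counting error only.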

Additional observations from a re-analysis of the deposited data

Results flagged for a closer look

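In 2 of 28 combinations of a member and a genotype, 1 library lay far from the other 3 of its group, by a gap to the nearest library that was large against the range of the group (Dixon's test at the 95% level). Chance alone gives such a gap in about 1 in 20 groups. Gabra2 in Ch25h+/+ Tau- was at 96.35 CPM in replicate 3 and at 56.6 to 61.8 CPM in the others (gap over range 0.871). Gabra3 in Ch25h+/+ Tau+ was at 129.7 CPM in replicate 2 and at 114 to 116 CPM in the others (0.858). The low Gabrb2 value in Ch25h+/+ Tau+ replicate 1 did not reach this limit (0.727).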

How the results depend on the processing

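No paired analysis was possible because the labels give no replicate numbers, and those used here follow the order of the records. For tau in either Ch25h genotype, the mean tau effect and the interaction, 0 members passed under each alternative run. For the mean Ch25h effect, 3 members passed as reported (20.3% of all genes), 5 without the filter on low counts (9.42%), 4 with limma-voom (25.7%), 4 with the 2 libraries named below left aside (23.3%), 0 with the library class as a covariate (0%), 0 with GC-corrected offsets (3.91%) and 3 to 4 with 1 library left out (13.5 to 23.5%). For Ch25h loss among Tau- libraries, 0 members passed as reported, 2 when only those 8 libraries were fitted, 2 with Ch25h+/+ Tau+ replicate 1 and Ch25h-/- Tau+ replicate 1 both left aside (an alternative chosen after seeing the data) and 0 to 2 with 1 library left out. For Ch25h loss among Tau+ libraries, 1 member passed as reported, 2 with DESeq2, 2 with limma-voom, 2 with both libraries left aside, 0 in the fit of 8 libraries, 0 with the class covariate, 0 with GC-corrected offsets and 0 to 2 with 1 library left out. The counts of all genes called among Tau- libraries were 182 as reported, 1229 in the fit of 8 libraries, 1124 with DESeq2, 1388 with limma-voom, 1822 with both libraries left aside, 13 with GC-corrected offsets, 0 with the class covariate and 522 without the filter. Among Tau+ libraries they were 629 as reported, 1494 with DESeq2, 1883 with limma-voom, 106 in the fit of 8 libraries, 1269 with both left aside, 186 with GC-corrected offsets and 10 with the class covariate. With 1 library left out they ran from 3 to 1306 among Tau- and from 108 to 1691 among Tau+ libraries, the highest of the Tau- counts when Ch25h+/+ Tau+ replicate 1 was left out and the highest of the Tau+ counts when Ch25h-/- Tau+ replicate 1 was. Among Tau- libraries the count moved by over 1.5 times for each library left out other than Ch25h+/+ Tau+ replicate 3 (124) and Ch25h-/- Tau- replicate 4 (238). Among Tau+ libraries it did so for Ch25h+/+ Tau+ replicates 4 (108), 1 (269) and 2 (1258) and for Ch25h-/- Tau+ replicates 3 (117), 4 (151), 2 (218) and 1 (1691). For the mean Ch25h effect, 3603 genes passed as reported, 694 with GC-corrected offsets and 0 with the class covariate. For tau in Ch25h+/+, 277 passed as reported, 424 with DESeq2 and 498 with limma-voom, and for tau in Ch25h-/-, 7 as reported, 28 without the filter, 14 with DESeq2 and 2 at a mean of at least 50 counts. For the mean tau effect 152 passed as reported, 319 without the filter, 292 with DESeq2 and 257 with limma-voom, and for the interaction 6, 57 without the filter, 55 with DESeq2, 10 with both libraries left aside and 3 with the class covariate. With 1 library left out, these counts ran from 160 (without Ch25h+/+ Tau+ replicate 4) to 299 for tau in Ch25h+/+, where leaving out Ch25h+/+ Tau- replicate 1 gave 176. They ran from 6 to 13 (without Ch25h-/- Tau- replicate 4) for tau in Ch25h-/-, from 107 to 233 (without Ch25h-/- Tau- replicate 1) for the mean tau effect, and for the interaction from 0 (Ch25h-/- Tau+ replicate 3 or 4 left out) to 22 (Ch25h+/+ Tau+ replicate 1 left out), with 12 when Ch25h-/- Tau+ replicate 2 was left out and 3 when Ch25h+/+ Tau- replicate 2, 3 or 4 or Ch25h-/- Tau- replicate 1 was. The cause was not tested.

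Signs that turned belonged to uncalled values, except those of Gabra3 and Gabra4 for the mean Ch25h effect with the class covariate. With that covariate the mean Ch25h effect was -0.0926 for Gabra2, -0.0487 for Gabra3, -0.0246 for Gabra4 and 0.0717 for Gabrd. The effect among Tau- libraries was -0.163 for Gabra3, -0.102 for Gabra4 and 0.0516 for Gabrd, and among Tau+ libraries -0.240 for Gabra2 and 0.0918 for Gabrd. Among Tau- libraries the class follows the genotype without exception. The class effect in this fit comes from Ch25h-/- Tau+ alone, where only replicate 1 is rRNA-poor. The Tau- values carry that class effect over and were not observed within Tau- libraries. The covariate also gave 0.0663 for tau in Ch25h-/- and 0.0436 for the interaction in Gabrb1, and 0.0138 for the mean tau effect in Gabra3. GC-corrected offsets gave -0.0227 for Gabra2 and 0.0504 for Gabrd for Ch25h loss among Tau+ libraries, and 0.0184 for tau in Ch25h-/- and 0.00806 for the interaction in Gabrb1. limma-voom gave 0.0468 for Gabra2 and 0.0790 for Gabrb2 for tau in Ch25h+/+, 0.0520 for Gabrb1 for tau in Ch25h-/-, and 0.0808 for Gabra5 and 0.0165 for Gabrb1 for the interaction. With both libraries left aside, tau in Ch25h+/+ was 0.112 for Gabra2 and 0.256 for Gabrb2, tau in Ch25h-/- was 0.0587 for Gabrb1, the interaction was -0.0844 for Gabrb2 and the mean tau effect was 0.0181 for Gabra3.

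With 1 library left out, tau in Ch25h+/+ ranged from -0.235 to 0.206 for Gabra2, -0.0778 to 0.0116 for Gabra4, -0.224 to 0.0406 for Gabra5, -0.0890 to 0.161 for Gabrb1 and -0.204 to 0.256 for Gabrb2. Tau in Ch25h-/- ranged from -0.00539 to 0.120 for Gabra3, -0.111 to 0.0919 for Gabrb1, -0.0108 to 0.171 for Gabrb2 and -0.161 to 0.0510 for Gabrd. The mean tau effect ranged from -0.0496 to 0.0131 for Gabra3, -0.0123 to 0.0449 for Gabra4, -0.0497 to 0.0753 for Gabrb1 and -0.0589 to 0.168 for Gabrb2. The interaction ranged from -0.249 to 0.0626 for Gabra5, -0.171 to 0.0786 for Gabrb1 and -0.176 to 0.290 for Gabrb2, and Ch25h loss among Tau+ libraries from -0.115 to 0.408 for Gabra2. Of values that kept their sign, tau in Ch25h+/+ ranged from -0.212 to -0.103 for Gabrd and tau in Ch25h-/- from -0.748 to -0.319 for Gabra2. The mean Ch25h effect ranged from 0.253 to 0.512 for Gabra2, 0.0931 to 0.235 for Gabra5 and -0.190 to -0.0796 for Gabrd, and Ch25h loss among Tau+ libraries from 0.261 to 0.502 for Gabrb1 and 0.251 to 0.711 for Gabrb2. Depth did not leave any member near the floor, since the lowest count was 567, for Gabra5.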
